A study of Mus musculus with 18 samples.

Results

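The alternative activation markers examined here are 10 genes, Mrc1, Retnla, Chil3, Cd163, Clec10a, Il4ra, Pparg, Klf4, Tgm2 and Folr2, taken by symbol from a table of 56748 mouse genes. They were chosen by name as a list, with earlier results of these data known. RNA was sequenced from bone marrow-derived macrophages, the macrophages that grow out of mouse bone marrow in medium with supernatant of L929 cells, which secrete the macrophage growth factor M-CSF. The groups were TLR4-knockout cells with GM, TLR4-knockout cells with MDP, TLR4-knockout cells with water, wild-type cells with GM, wild-type cells with MDP and wild-type cells with water, with 3 libraries each. All mice were C57BL/6J, and treatment lasted 24 h from day 7 of differentiation, in IMDM without serum. The labels name no treatment with IL-4 or IL-13. GM is the disaccharide GlcNAc-MurNAc of the bacterial cell wall. The labels write MDP as MurNAc-D-Ala-L-Gln, while the muramyl dipeptide known as a NOD2 ligand is MurNAc-L-Ala-D-isoGln, and doses are not stated in the labels. The knockout allele and the age and sex of the mice are not stated either. The labels call the 3 libraries of a group biological replicates and do not say whether each came from its own animal or culture. The p-values therefore reflect the spread between these libraries, part of which may be technical.

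Alternative activation is the state that macrophages enter when IL-4 or IL-13 binds the receptor chain encoded by Il4ra and the transcription factor STAT6 is activated. STAT6 works together with PPARG and KLF4, and the target genes include secreted proteins (Chil3, Retnla), lectins of the cell surface (Mrc1, Clec10a) and the enzyme transglutaminase 2 (Tgm2). CD163, a scavenger receptor for haemoglobin and haptoglobin, and FOLR2, a folate receptor, are also used as surface markers of tissue-resident macrophages. TLR4 is the receptor for bacterial lipopolysaccharide.

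The 2 secreted markers differed from each other in these cells, so their promoters are shown. Each runs from 250 bases before to 50 bases after the start site, 5' to 3' along the gene, from RefSeq on mouse build GRCm38.p6. Retnla lies on the plus strand at chr16:48842359-48842658 and Chil3 on the minus strand at chr3:106167515-106167814. Capitals mark, in Retnla, a match to the STAT6 pattern (TTC and GAA with 4 bases between), a match to the C/EBP pattern TTGCNNAA and the TATA letters TATAAA, which start 30 bases before the start site. In Chil3, they mark a match to the shorter STAT pattern TTCNNNGAA and the letters TATAAA, which start 3 bases before the annotated start site and run across it.
Retnla: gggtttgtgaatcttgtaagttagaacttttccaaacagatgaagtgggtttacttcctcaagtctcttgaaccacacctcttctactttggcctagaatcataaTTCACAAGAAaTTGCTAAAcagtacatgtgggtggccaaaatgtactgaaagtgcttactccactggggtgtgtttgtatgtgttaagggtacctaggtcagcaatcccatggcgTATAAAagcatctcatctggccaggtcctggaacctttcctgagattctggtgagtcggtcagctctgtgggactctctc
Chil3: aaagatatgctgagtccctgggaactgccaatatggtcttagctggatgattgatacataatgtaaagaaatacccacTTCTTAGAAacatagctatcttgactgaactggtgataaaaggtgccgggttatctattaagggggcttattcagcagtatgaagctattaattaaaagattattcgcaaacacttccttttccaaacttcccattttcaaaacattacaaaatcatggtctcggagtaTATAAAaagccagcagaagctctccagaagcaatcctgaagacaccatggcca
The STAT6 pattern of Retnla, TTCACAAGAA, starts 145 bases before the start site, and the C/EBP match follows at 134 bases before it. The Chil3 match, TTCTTAGAA, starts 172 bases before the start site. Promoters of 8 of the 10 members were in the table used, and none was in it for Clec10a and Tgm2. Searched on both strands, the STAT6 pattern occurred in 6.95% of 32851 promoters of the same length and in Retnla among the members. TTCNNNGAA occurred in 8.3% and in Chil3, TTGCNNAA in 10.8% and in Retnla and Pparg, and TATAAA in 13.6% and in Retnla, Chil3 and Pparg. The PPAR-RXR pattern, a direct repeat of AGGTCA with 1 base between, occurred in 0.0396% of promoters, and its letters were not found in the members' windows. The KLF pattern CACCC occurred in 57.5%. These matches describe the sequence.

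Total counts ran from 15532973 to 21128507 per library. Tlr4 itself was at 36.5 to 52.9 CPM (counts scaled to a common library size) in the 9 knockout libraries and at 117 to 230 CPM in the 9 wild-type libraries. The macrophage markers Adgre1, Csf1r, Cd68, Mertk, Fcgr1, Itgam, Lyz2 and Cd14 were detected in every library and summed to 24474 to 32792 CPM. The libraries of a group did not vary equally: the coefficient of variation was 5.69% to 6.49% in the 3 knockout groups, 8.11% in wild-type MDP, 27.6% in wild-type GM and 35.5% in wild-type water. Wild-type water replicate 3 stood apart, at -43.5 on the second principal component, against -5.54 and -5.81 for the other 2. Each comparison was therefore fitted on its own libraries. For many results that rest on wild-type water, values without replicate 3 are also given. That replicate was singled out after seeing these data, and without it the group has 2 libraries. Calls for knockout against wild type with water then went from 15.8% to 49.3% of all genes. Adjusted p-values without replicate 3 are therefore given as a description.

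Per gene length, Chil3 was the most abundant member, with a mean over the 18 libraries of 404 FPKM (a value per unit of gene length and of library size, computed by the authors). The mean level was 61.8 FPKM for Mrc1, 51.7 for Tgm2 and 35.3 for Il4ra. Klf4 averaged 8.52 FPKM, Pparg 6.13, Clec10a 3.9 and Retnla 2.46. Folr2 and Cd163 were near the limit of detection, at 0.159 and 0.0285 FPKM. In bulk RNA, fewer cells of a type and less RNA per cell cannot be told apart.

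Retnla (ENSMUSG00000061100, GRCm39 chromosome 16, 48662914 to 48664824), which encodes the secreted cysteine-rich protein RELMalpha, was read in quantity in 1 of the 6 groups, wild-type cells with MDP. In knockout cells it had 0, 0 and 0 counts with GM, 5, 1 and 1 with MDP and 0, 0 and 0 with water. In wild-type cells it had 6, 10 and 4 counts with GM, 98, 235 and 115 with MDP and 0, 3 and 0 with water. The wild-type MDP libraries, at 5.36, 12.2 and 7.44 CPM, lay above all other libraries. Retnla passed the low-count filter only through this group, so its fitted values are given as a description. MDP raised Retnla in wild-type cells by log2 7.06 over water (SE 0.83, 95% interval 5.08 to 9.04, adjusted p = 0.0065; 6.54 without water replicate 3), and with so few counts in water the ratio of summed counts, 153, has a counting interval of 52.1 to 746. The log2 fold change of GM over MDP in wild-type cells was -4.47 (SE 0.45, adjusted p = 0.0029). A fit with a spread for each group, chosen after seeing the data, gave adjusted p = 0.059 for MDP against water and 0.052 for GM against MDP. GM against water was not tested because the counts were too few; the sums were 20 and 3 counts, a ratio of 6.8 with a counting interval of 2.02 to 35.8. With MDP, Retnla was lower in knockout than in wild-type cells (log2 fold change -5.94, SE 0.50, adjusted p = 3.1e-07). With GM, the knockout sum of 0 counts, against 20 in wild-type cells, makes it at least 7.71-fold lower, with a floor of 3 counts over the group. In knockout cells the 7 counts with MDP, against 0 with water, give at least 2.41-fold higher with the same floor. The fitted genotype difference in the MDP response of Retnla, log2 -2.77, had an SE of 11.8 with knockout water at 0, and no difference or likeness is read from it. These intervals and floors cover counting error only.

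The sum of a dendritic cell list was highest where Retnla was highest, but did not follow Retnla across all groups. The list of 8 genes (Flt3, Zbtb46, Cd209a, Ccr7, Clec9a, Xcr1, Itgae and Dpp4) summed to 167 to 210 CPM with GM, 321 to 424 with MDP and 134 to 157 with water in knockout cells. In wild-type cells the list summed to 539 to 675 CPM with GM, 768 to 850 with MDP and 91.9 to 255 with water. Wild-type MDP had the highest sums of the 6 groups, as it had for Retnla. Wild-type GM had the next highest sums, with 20 Retnla counts over the group. By gene the list was mixed, with 2 higher and 1 lower of 6 tested for MDP against water in wild-type cells. There 9.14% of all genes were called. Most of the sum was Ccr7, a chemokine receptor gene that activated macrophages can also express, at a mean of 713 CPM with MDP and 107 with water in wild-type cells. Clec9a, a gene of conventional dendritic cells, had a mean of 9.61 CPM with MDP and 18.8 with water there, and Flt3 had 13 to 17.9 CPM with MDP and 0.443 to 3.38 with water. Each library detected 6 to 8 of the 8 genes, and Cd209a was at 0 in all 3 knockout MDP libraries. The part of dendritic cells in the Retnla difference was not tested.

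Chil3 (ENSMUSG00000040809, GRCm39 chromosome 3, 106054870 to 106074880), which encodes the secreted chitinase-like protein Ym1, was at a higher level in knockout than in wild-type cells under each treatment. In knockout cells it was at 1049, 1042 and 945 CPM with GM, 950, 1197 and 1187 with MDP and 735, 914 and 851 with water. In wild-type cells it was at 448, 218 and 300 CPM with GM, 454, 415 and 497 with MDP and 108, 125 and 503 with water. All 9 knockout libraries lay above all 9 wild-type libraries. Within a single treatment, knockout lay wholly above wild type for 23.6% of 15450 genes with GM, 25% with MDP and 22% with water. Knockout exceeded wild type by log2 1.68 with GM (SE 0.25, adjusted p = 0.004) and by log2 1.31 with MDP (SE 0.10, adjusted p = 6.3e-06). With water the log2 fold change was 1.77 (SE 0.60, adjusted p = 0.097), and without wild-type water replicate 3 it was 2.84 (adjusted p = 0.00011). Within wild-type cells, Chil3 did not pass the test with GM or MDP over water (log2 0.39 and 0.90, intervals -1.14 to 1.92 and -0.50 to 2.30). Without water replicate 3 these were log2 1.47 with GM (adjusted p = 0.097) and 1.97 with MDP (adjusted p = 1.3e-09). In knockout cells, GM and MDP libraries lay above water libraries, with log2 fold changes of 0.28 (adjusted p = 0.11) and 0.42 (adjusted p = 0.10). The same held for 11% of 15450 genes with GM and 15.5% with MDP. Of the 50-base windows of Chil3 in GENCODE transcripts, 26.9% also occur in another gene, most often Chil4, and Chil4 itself summed to 0 to 2 counts in each group.

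The sum of a monocyte list was higher in knockout cells, as Chil3 was, and monocytes and neutrophils also express Chil3. The monocyte list (Ly6c2, Ccr2, Plac8, Hp and Cx3cr1) summed to 576 to 792 CPM with GM, 993 to 1188 with MDP and 673 to 681 with water in knockout cells. In wild-type cells it summed to 123 to 141 CPM with GM, 128 to 138 with MDP and 51.0 to 105 with water. All 5 genes were detected in all libraries except Cx3cr1, which was at 0 in wild-type GM replicate 3. The neutrophil list of 12 genes summed in knockout cells to 2460 to 2574 CPM with GM. There it summed to 2325 to 2477 CPM with MDP and 2409 to 2428 with water. In wild-type cells it summed to 1255 to 2577 CPM with GM, 1846 to 1980 with MDP and 1580 to 2391 with water. Its sums thus overlapped between genotypes with GM, and were higher in knockout cells with MDP and with water. By gene, knockout gave 3 higher and 0 lower of 8 with water, 7 and 0 of 9 with GM, and 6 and 1 of 8 with MDP. Of all genes, 15.8%, 32.4% and 46.9% were called there. Retnlg was at 0 in all but 2 libraries, and Ly6g, Mpo and Elane were at 0 in some. The part of these cells in the Chil3 difference was not tested.

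**Figure D1:**
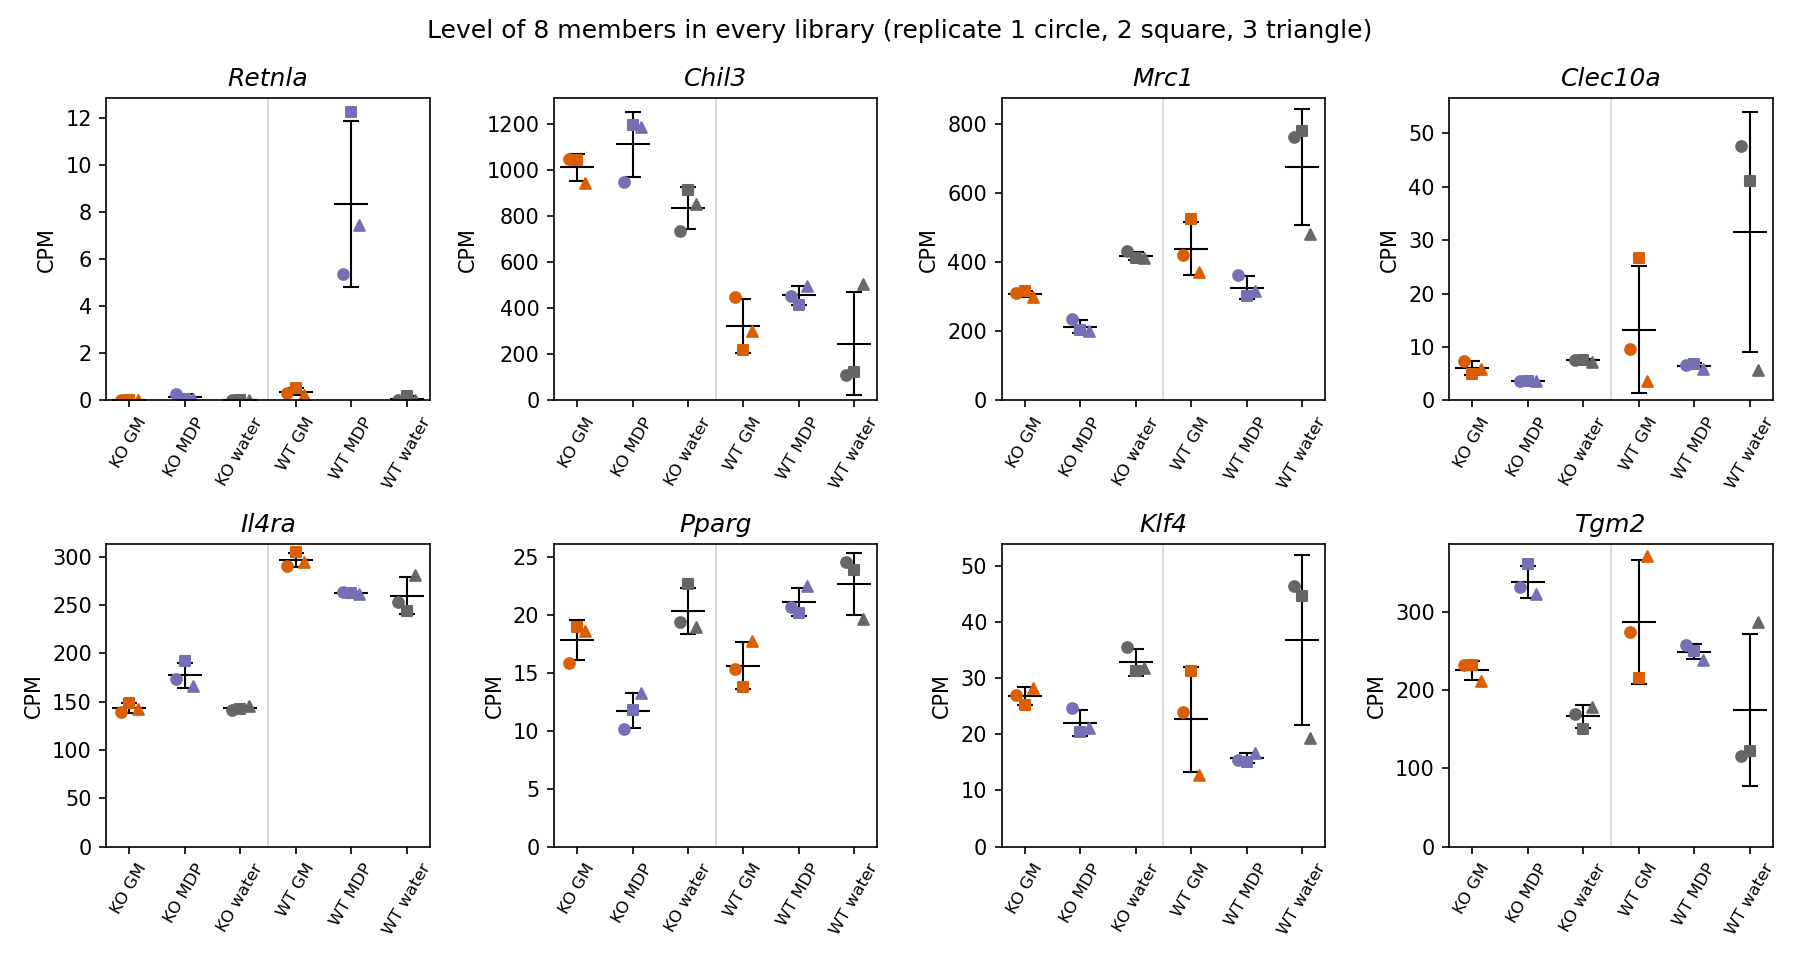
Level of 8 members (CPM, linear axes from 0) in each of the 18 libraries, TLR4 knockout on the left and wild type on the right of each panel. Points are libraries and the black bar and whiskers the mean and SD of 3. Retnla stands up in wild-type MDP (5.36 to 12.2 CPM) and Chil3 lies higher in all knockout libraries (735 to 1197 CPM) than in wild-type libraries (108 to 503 CPM). In wild-type water, replicate 3 (triangle) lies away from the other 2 for Chil3, Mrc1, Clec10a, Klf4 and Tgm2.

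Mrc1 (ENSMUSG00000026712, GRCm39 chromosome 2, 14234203 to 14336868), the macrophage mannose receptor CD206, was lower with MDP than with water in both genotypes. Mrc1 in knockout cells was at 310, 317 and 298 CPM with GM, 236, 203 and 202 with MDP and 432, 411 and 411 with water. The wild-type libraries were at 420, 524 and 373 CPM with GM, 363, 301 and 315 with MDP and 762, 781 and 481 with water. In knockout cells all 3 treatments were apart from each other, with MDP lowest, GM between and water highest. Taken 1 pair at a time, 23.4% of 15450 genes were apart for GM and water, 32.8% for MDP and water and 31.5% for GM and MDP. MDP lowered Mrc1 there, with a log2 fold change of -0.96 (SE 0.05, adjusted p = 1.7e-15) and GM lowered it, with a log2 fold change of -0.44 (SE 0.04, adjusted p = 1.1e-09), both against the same water libraries. In wild-type cells the log2 fold change was -1.04 with MDP (SE 0.20, adjusted p = 0.028) and -0.62 with GM (SE 0.23, adjusted p = 0.69). Without water replicate 3 these were -1.24 (adjusted p = 1.1e-09) and -0.81 (adjusted p = 0.080). The wild-type MDP call was lost in 5 of 6 fits that left out 1 library, with adjusted p up to 0.16. A difference in response between genotypes did not pass the test (knockout minus wild type, MDP 0.08, 95% interval -0.40 to 0.56; GM 0.18, interval -0.36 to 0.71), though without wild-type water replicate 3 the MDP difference was 0.27 (adjusted p = 0.040). Knockout was below wild type, with a log2 fold change of -0.49 with GM (SE 0.13, adjusted p = 0.028) and -0.59 with MDP (SE 0.07, adjusted p = 6.6e-06). With water it was log2 -0.69 (SE 0.19, adjusted p = 0.058), and without wild-type water replicate 3 it was -0.88 (adjusted p = 3.7e-19). The GM call was lost when wild-type replicate 1 or any 1 knockout library was left out.

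Clec10a (ENSMUSG00000000318, GRCm39 chromosome 11, 70047023 to 70061660), the galactose-type lectin CD301, varied most in wild-type water and GM. In knockout cells it was at 7.41, 4.84 and 5.87 CPM with GM, 3.68, 3.7 and 3.53 with MDP and 7.6, 7.63 and 7.27 with water. In wild-type cells it was at 9.6, 26.6 and 3.54 CPM with GM, 6.57, 6.87 and 5.95 with MDP and 47.6, 41.1 and 5.75 with water. Wild-type water replicates 1 and 2 were above all other libraries, while replicate 3 lay within the range of the other groups. MDP lowered Clec10a in knockout cells, with a log2 fold change of -1.04 (SE 0.17, adjusted p = 7.8e-06), and GM exceeded MDP there by log2 0.72 (SE 0.19, adjusted p = 0.0041). In wild-type cells MDP over water gave log2 -2.28 (SE 0.70, adjusted p = 0.096), and without water replicate 3 it gave -2.77 (adjusted p = 2.9e-12). That was the 1 call among 6 fits that left out 1 library, which ranged from -2.77 to -1.85. With MDP, knockout was below wild type, with a log2 fold change of -0.81 (SE 0.18, adjusted p = 0.00067). With water that difference was log2 -2.07 (SE 0.70, adjusted p = 0.094), and without replicate 3 -2.56 (adjusted p = 8.4e-22). Of the 50-base windows of Clec10a, 9.02% also occur in another gene, mostly its neighbour in sequence Mgl2, which fell with MDP in knockout cells too (log2 -0.95, adjusted p = 9.4e-05).

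Stromal genes moved with these levels in wild-type cells. A list of 12 fibroblast and stroma genes, led by collagens, summed to 20.8 to 22.1 CPM with GM, 32.1 to 34.1 with MDP and 26.8 to 32.4 with water in knockout cells. In wild-type cells it summed to 70.2, 120 and 59.2 CPM with GM, 20.8 to 31.2 with MDP and 325, 281 and 54.9 with water. At least 11 of the 12 genes were detected in each library; Lum was at 0 in all wild-type MDP libraries. The libraries with the highest sums in their group, water replicates 1 and 2 and GM replicate 2, also had the highest Clec10a, Klf4 and Mrc1 and the lowest Chil3 and Tgm2 of their group. The part of stromal cells in these levels was not tested.

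**Figure D2:**
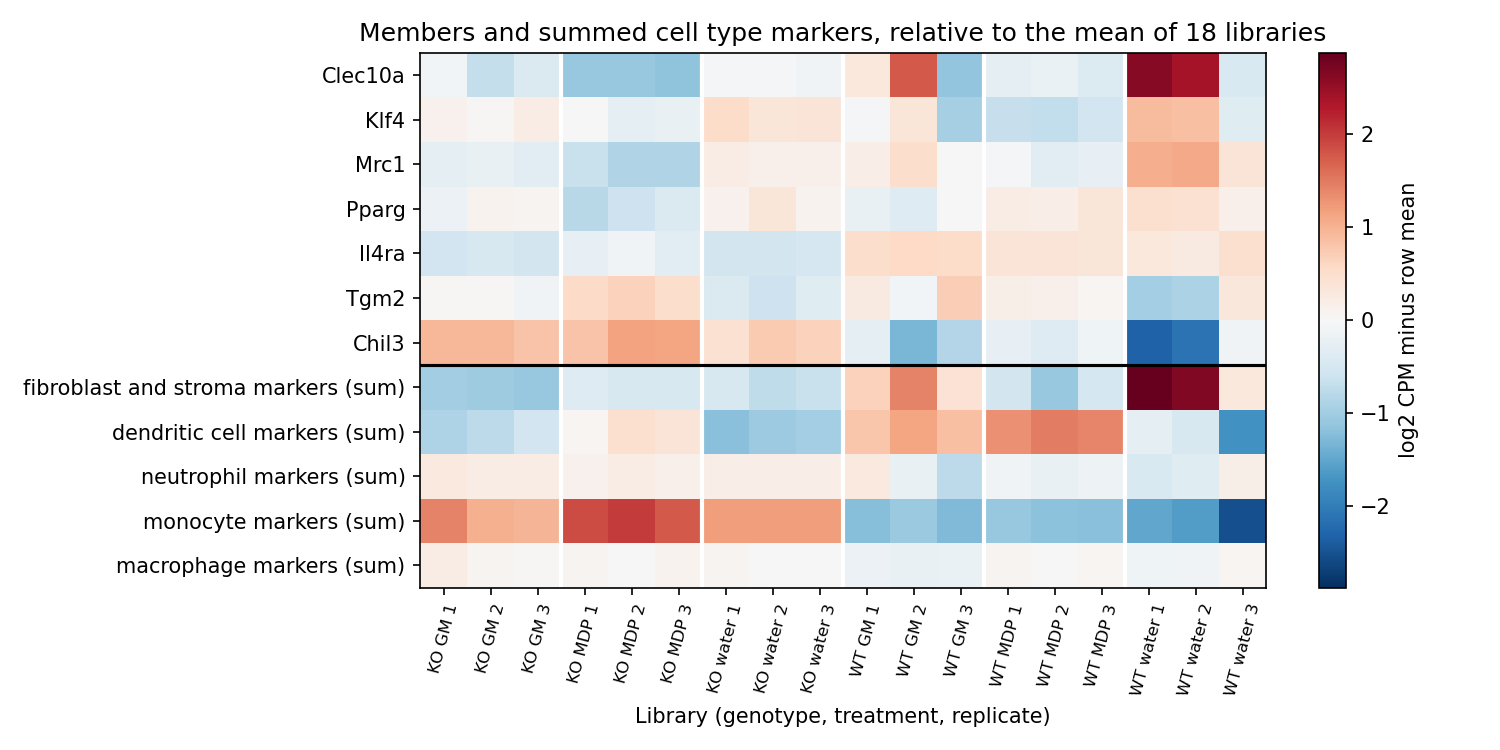
Level of 7 members and summed cell type markers in the 18 libraries, as log2 CPM minus the row mean (red above, blue below), knockout libraries on the left. Wild-type water replicates 1 and 2 pair high Clec10a (47.6 and 41.1 CPM), Klf4 and Mrc1 with high stromal sums (325 and 281 CPM), while replicate 3 has 5.75 CPM of Clec10a and a sum of 54.9 CPM.

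Cd163 and Folr2 were close to undetected. Cd163 had 6, 6 and 1 counts with GM, 3, 1 and 5 with MDP and 3, 5 and 0 with water in knockout cells. In wild-type cells Cd163 had 0, 2 and 0 counts with GM, 0, 3 and 3 with MDP and 9, 3 and 3 with water. These counts were below the filter in each comparison, so Cd163 was not tested. The group sums were 2 counts with GM, against 15 with water, in wild-type cells, a ratio of 0.136 with a counting interval of 0.0151 to 0.585. With GM, the sums were 13 in knockout and 2 in wild-type cells, a ratio of 5.62 with a counting interval of 1.27 to 51.3. The intervals of the other 7 comparisons of Cd163 included 1, and all cover counting error only. Folr2 had 0, 1 and 0 counts with GM, 0, 0 and 0 with MDP and 2, 0 and 0 with water in knockout cells, against 6, 8 and 3 with GM, 6, 17 and 11 with MDP and 5, 7 and 14 with water in wild-type cells. Every wild-type library thus held more Folr2 counts than any knockout library. Within a single treatment, knockout lay wholly below wild type for 27.2% of 15450 genes with GM, 27.8% with MDP and 22.3% with water. Against wild-type cells, the knockout sum was at least 11.8-fold lower with MDP (0 against 34 counts, floor of 3 over the group), and the ratio of sums was 0.0509 with GM and 0.0737 with water (counting intervals 0.00122 to 0.325 and 0.00848 to 0.294). A fit without the filter on low counts gave adjusted p = 8.7e-06 with MDP, 0.053 with GM and 0.092 with water for Folr2. In a fit of all 18 libraries these were 0.0016, 0.014 and 0.011. Folr2 passed the filter of that fit only through wild-type libraries, where it was higher. The p-values of both fits are therefore given as a description.

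Il4ra (ENSMUSG00000030748, GRCm39 chromosome 7, 125151292 to 125178646), the receptor chain shared by IL-4 and IL-13, was lower in knockout cells under each treatment. Il4ra in knockout cells was at 139, 149 and 142 CPM with GM, 173, 192 and 166 with MDP and 142, 143 and 145 with water. The wild-type libraries were at 291, 305 and 294 CPM with GM, 263, 263 and 261 with MDP and 253, 244 and 281 with water. All knockout libraries lay below all wild-type libraries. Within a single treatment this held for 27.2% of 15450 genes with GM, 27.8% with MDP and 22.3% with water. Knockout was lower, with a log2 fold change of -1.03 with GM (SE 0.07, adjusted p = 0.00035), -0.54 with MDP (SE 0.06, adjusted p = 2.2e-08) and -0.86 with water (SE 0.09, adjusted p = 0.0034; -0.79 without wild-type water replicate 3). The call held in every alternative run for these 3 comparisons. Within knockout cells MDP raised Il4ra by log2 0.31 (SE 0.05, adjusted p = 1.1e-05), while GM against water gave 0.01 with an interval of -0.08 to 0.09. Within wild-type cells neither passed the test (MDP 0.02, interval -0.20 to 0.24; GM 0.19, interval -0.07 to 0.45). The MDP response differed between genotypes by log2 0.29 (SE 0.10, adjusted p = 0.11), which did not pass, and by 0.23 without wild-type water replicate 3 (adjusted p = 0.022).

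Pparg (ENSMUSG00000000440, GRCm39 chromosome 6, 115337912 to 115467360), the lipid-activated nuclear receptor, was lower with MDP in knockout cells. In knockout cells it was at 15.8, 19 and 18.6 CPM with GM, 10.2, 11.8 and 13.2 with MDP and 19.4, 22.7 and 19 with water. In wild-type cells it was at 15.4, 13.7 and 17.8 CPM with GM, 20.7, 20.2 and 22.5 with MDP and 24.6, 23.9 and 19.6 with water. Knockout MDP was the lowest group and did not overlap any other, while in wild-type cells GM was the lowest. Of 15450 genes, 17.3% had knockout MDP wholly below knockout water and 27.8% had it wholly below wild-type MDP. MDP lowered Pparg in knockout cells, with a log2 fold change of -0.79 (SE 0.11, adjusted p = 8.4e-07), and GM exceeded MDP by 0.60 (SE 0.11, adjusted p = 0.00013). In wild-type cells MDP over water gave -0.10 (interval -0.41 to 0.21) and GM over water -0.54 (SE 0.16, adjusted p = 0.45). GM over water passed in a fit of all 18 libraries (adjusted p = 0.023), which shares 1 spread among groups of unequal spread. With MDP, knockout was below wild type, with a log2 fold change of -0.82 (SE 0.11, adjusted p = 1.8e-06); the differences with GM (0.21) and water (-0.15) did not pass, though with water it was -0.24 without wild-type replicate 3 (adjusted p = 0.045). The MDP response differed between genotypes (knockout minus wild type, log2 -0.69, SE 0.18, interval -1.09 to -0.30, adjusted p = 0.038), a call that was lost in 8 of 12 fits that left out 1 library. Without wild-type water replicate 3 the difference was -0.60 (adjusted p = 0.0033).

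Klf4 (ENSMUSG00000003032, GRCm39 chromosome 4, 55527143 to 55532466), a zinc-finger transcription factor that cooperates with STAT6, was lower with either treatment than with water in knockout cells. Klf4 in knockout cells was at 26.9, 25.2 and 28.3 CPM with GM, 24.6, 20.4 and 21.1 with MDP and 35.6, 31.2 and 31.7 with water. The wild-type libraries were at 24, 31.3 and 12.7 CPM with GM, 15.4, 15 and 16.8 with MDP and 46.4, 44.6 and 19.3 with water. MDP lowered Klf4 in knockout cells, with a log2 fold change of -0.57 (SE 0.09, adjusted p = 2.9e-06) and GM lowered it, with -0.29 (SE 0.08, adjusted p = 0.012). The GM call was lost without knockout water replicate 1 (adjusted p = 0.11) or knockout GM replicate 2 (adjusted p = 0.077). In wild-type cells MDP over water gave -1.22 (SE 0.33, adjusted p = 0.068), and without water replicate 3 it gave -1.53 (adjusted p = 4.2e-10). With MDP, Klf4 was higher in knockout than in wild-type cells by log2 0.51 (SE 0.10, adjusted p = 0.00025), the opposite direction to Pparg. With water the difference was log2 -0.16 (adjusted p = 0.75), and without replicate 3 it was -0.47 (adjusted p = 3.9e-06).

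Tgm2 (ENSMUSG00000037820, GRCm39 chromosome 2, 157958322 to 157988356), the protein-crosslinking enzyme transglutaminase 2, moved opposite to Mrc1 and Klf4 with treatment in knockout cells. In knockout cells it was at 232, 232 and 211 CPM with GM, 332, 361 and 322 with MDP and 170, 151 and 179 with water. Its wild-type levels were 274, 215 and 372 CPM with GM, 258, 250 and 239 with MDP and 115, 122 and 287 with water. The 3 knockout groups did not overlap. Taken 1 pair at a time, the groups were apart for 23.4% of 15450 genes (GM and water), 32.8% (MDP and water) and 31.5% (GM and MDP). MDP raised Tgm2 in knockout cells by log2 1.03 (SE 0.06, adjusted p = 2.5e-13), GM raised it by 0.44 (SE 0.05, adjusted p = 1.6e-05), and GM lay below MDP, with a log2 fold change of -0.59 (SE 0.05, adjusted p = 5.0e-12). In wild-type cells MDP over water gave 0.51 (SE 0.35, adjusted p = 0.40), and without water replicate 3 it gave 1.07 (adjusted p = 1.5e-10). Knockout exceeded wild type with MDP by log2 0.47 (SE 0.06, adjusted p = 1.7e-07). With water the difference was -0.07 (adjusted p = 0.91) and turned to 0.49 (adjusted p = 7.0e-08) without wild-type water replicate 3. Rprd1b and Gm20412 overlap Tgm2 on the opposite strand at a mean of 32.9 and 14.6 CPM, and whether counting used the strand is not given in the sources used here.

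Set against all genes, the members' calls were as follows. For GM against water in wild-type cells, 0 of the 7 members tested passed in edgeR, where 0.65% of 14297 genes did. At an unadjusted p below 0.05, 2 members (Mrc1 and Pparg) and 6.39% of genes passed, and DESeq2 called 0 members and 2.54% of genes. MDP against water in wild-type cells gave 1 higher (Retnla, which entered through its MDP libraries) and 1 lower (Mrc1) of 9 tested, with 9.14% of all genes called, 5.13% higher and 4.02% lower. Without water replicate 3 it gave 3 higher and 3 lower, with 37.6% of all genes called. GM against MDP in wild-type cells gave 1 of 8 (Retnla, lower, likewise), with 10.7% called and 5.17% lower, and without GM replicate 3 it gave 4, with 15.2% called. In knockout cells GM against water gave 1 higher and 2 lower of 7, with 8.61% of all genes called, 4.15% higher and 4.46% lower. MDP against water gave 2 higher and 4 lower of 7, with 20.9% called, 10.4% higher and 10.5% lower. GM against MDP in knockout cells gave 4 higher and 2 lower of 7, with 17.7% called, 8.38% higher and 9.33% lower. GM and MDP share their water libraries, and their doses are not stated. A fit of all 18 libraries called 0, 3 and 2 members in these 3 knockout comparisons, and 0.0194%, 2.76% and 1.57% of all genes. The same fit called, in wild-type cells, 2 for GM against water (Mrc1 and Pparg) and 4 for MDP against water (Retnla, Mrc1, Clec10a and Klf4), with 4.72% and 24.7% of all genes. In knockout cells those called were Mrc1, Il4ra and Pparg for MDP against water and Il4ra and Pparg for GM against MDP.

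**Figure D3:**
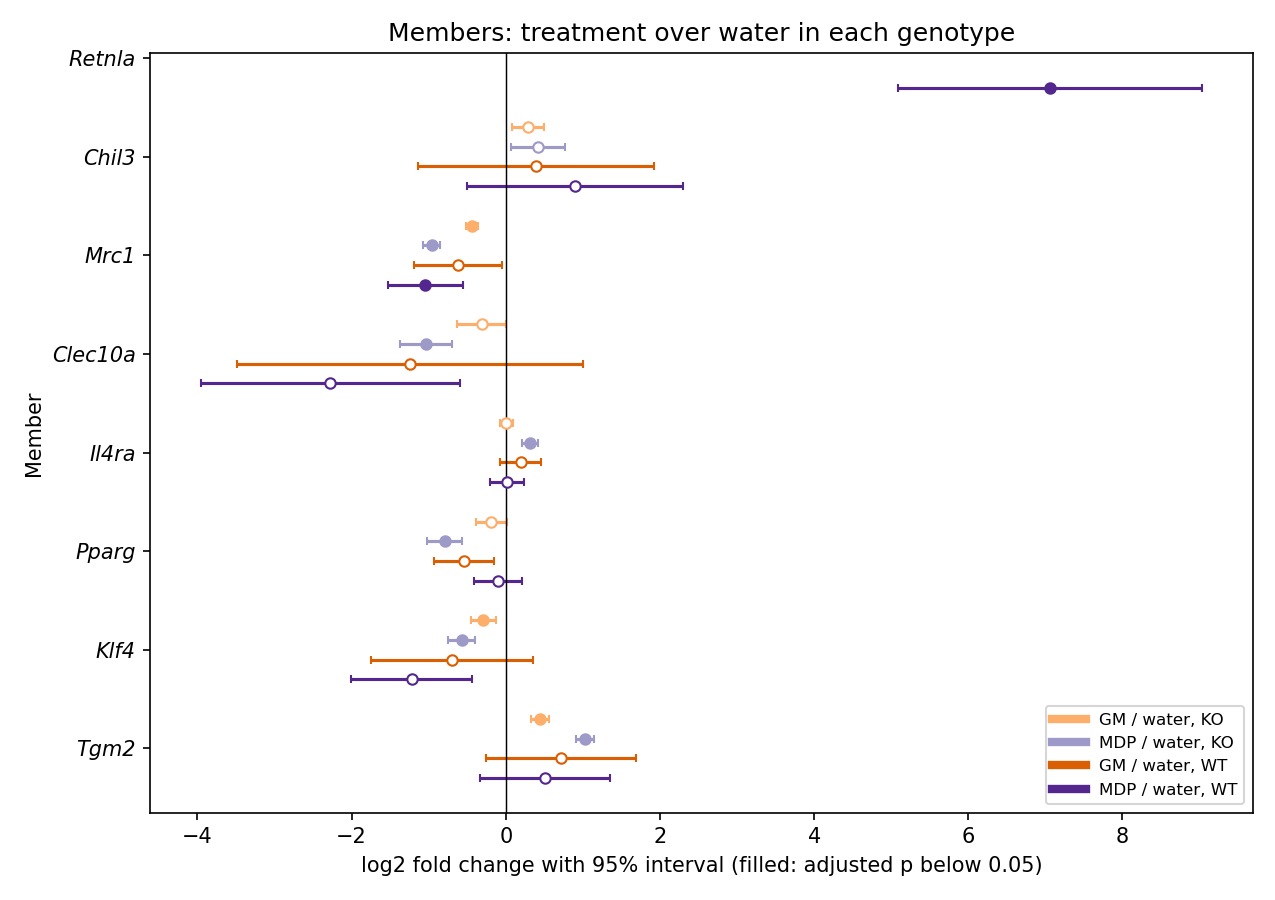
Fitted log2 fold change of each member, GM or MDP over water, in knockout and wild-type cells, with 95% intervals; filled points passed at an adjusted p below 0.05. In knockout cells Mrc1, Klf4, Pparg and Clec10a lie below 0 with MDP (-0.57 to -1.04) and Tgm2 above it (1.03). The wild-type intervals are wider. Retnla (7.06) is drawn for the comparison that could be tested, as a description, because it passed the filter only through its wild-type MDP libraries.

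Knockout against wild type gave 1 lower (Il4ra) of 7 tested with water, with 15.8% of all genes called, 6.98% higher and 8.8% lower. Without wild-type water replicate 3 it gave 7, with 49.3% called. With GM it gave 1 higher (Chil3) and 2 lower (Mrc1, Il4ra) of 7, with 32.4% called, 14.8% higher and 17.6% lower. With MDP all 8 members tested passed (Cd163 and Folr2 were below the filter), 3 higher (Chil3, Klf4, Tgm2) and 5 lower (Retnla, Mrc1, Clec10a, Il4ra, Pparg), where 46.9% of 14304 genes did, 23.7% higher and 23.3% lower. Retnla entered here only through its wild-type MDP libraries, so its place in these counts is a description. In the fit of all 18 libraries, Clec10a, Klf4 and Tgm2 did not pass in that comparison (adjusted p = 0.41, 0.26 and 0.25), and 26% of all genes were called. The median log2 fold change with MDP was -0.57 over those 8, -0.54 without Retnla and 0.01 over all genes tested. A genotype difference in GM response passed in 0 of 7 members in edgeR, with 0.953% of all genes called. At an unadjusted p below 0.05, 0 members and 7.83% of genes passed, and DESeq2 called 0 members and 2.09% of genes. The MDP response differed in 1 of 9 (Pparg, lower), with 8.24% called and 4.79% lower. Without wild-type water replicate 3 it differed in 6 (Mrc1, Chil3, Clec10a, Il4ra, Pparg and Klf4), with 26.3% of all genes called. In that edgeR fit the difference was log2 -1.55 for Chil3, 1.73 for Clec10a and 0.96 for Klf4. With all 12 libraries it was -0.48, 1.24 and 0.65 for these 3, and none passed.

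**Figure D4:**
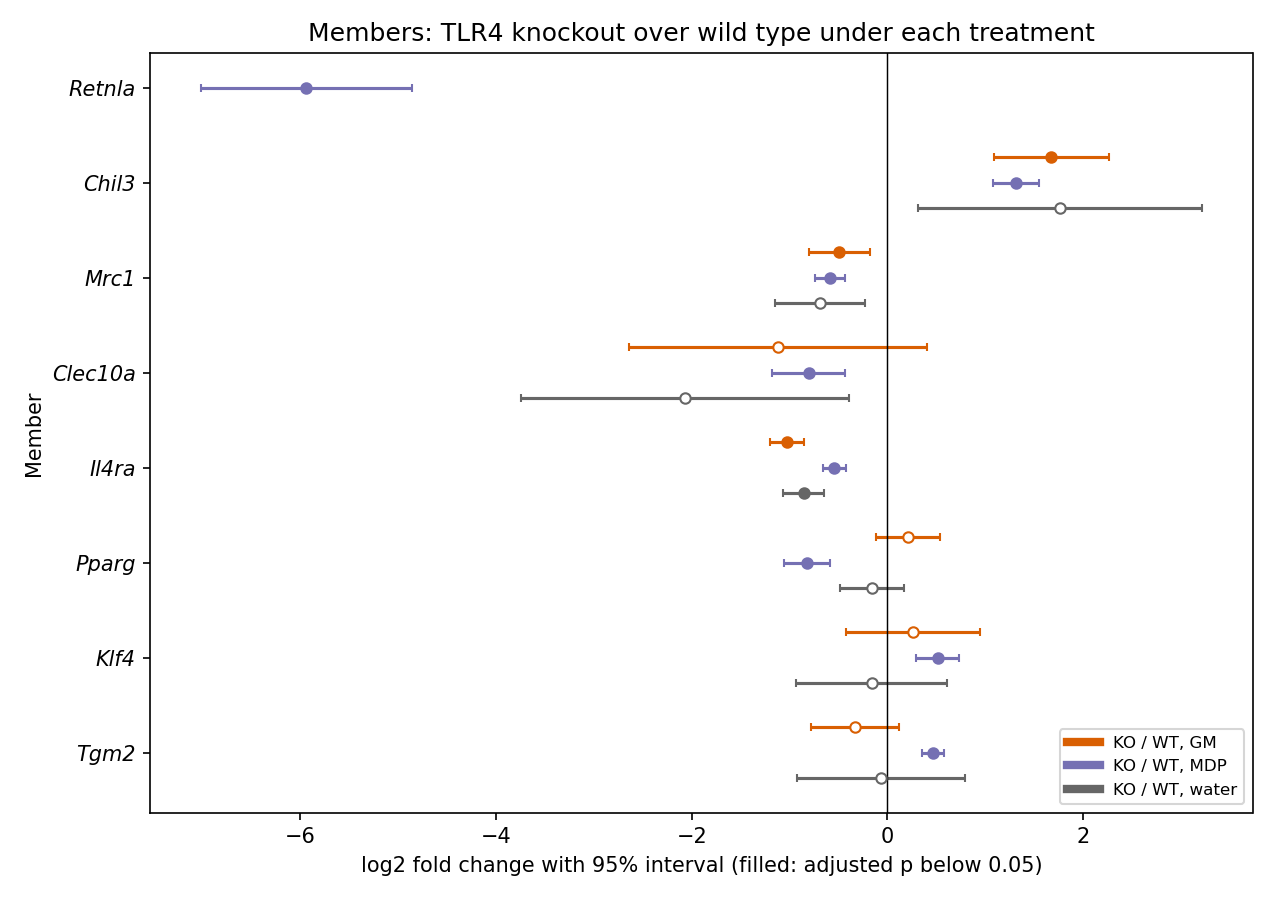
Fitted log2 fold change of each member, TLR4 knockout over wild type, with GM, MDP and water and 95% intervals; filled points passed at an adjusted p below 0.05. Il4ra lies below 0 with all 3 treatments (-0.54 to -1.03) and Chil3 above it (1.31 to 1.77), open for water. Retnla (-5.94) could be tested with MDP alone, where it passed the filter only through its wild-type libraries, and is drawn as a description.

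Other genes of the IL-4 pathway gave mixed values. Of the 10 ligand, receptor and signalling genes, 7 were tested in each comparison. Knockout against wild type gave 1 higher and 1 lower with water, 1 higher and 2 lower with GM, and 2 higher and 3 lower with MDP, where 15.8%, 32.4% and 46.9% of all genes were called. In the fit of all 18 libraries these were 3 and 2, 1 and 2, and 1 and 1, where 33.1%, 37.4% and 26% of all genes were called. Irs2, an adaptor of the IL-4 receptor, was lower in knockout cells, with a log2 fold change of -0.84, -1.16 and -0.95 with water, GM and MDP (adjusted p = 0.036, 0.0028 and 1.6e-09), and -0.60 with water without wild-type replicate 3. Il13ra1, which pairs with the Il4ra product, was higher by 0.41 with GM and 0.95 with MDP (adjusted p = 0.014 and 1.2e-11). The cytokine genes Il4 and Il13 had sums of 7 to 27 and 2 to 13 counts per group.

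Among 17 other IL-4 response genes of the table (Ear11 was not analysed here), MDP in wild-type cells raised Arg1, the arginine-degrading enzyme, by log2 3.65 (adjusted p = 0.044) and the chemokine gene Ccl22 by 0.89 (adjusted p = 0.038). It lowered Cish, an inhibitor of cytokine signalling, with a log2 fold change of -3.28 (adjusted p = 0.0048); 2 rose and 2 fell of 16 tested, with 9.14% of all genes called. Without water replicate 3 the fold changes were log2 5.97 for Arg1, 0.70 for Ccl22 and -3.59 for Cish, all called, and 6 rose and 9 fell, with 37.6% of all genes called. Arg1 had 9 counts over the wild-type water group, at 0 in replicate 2 and at most 0.443 CPM in any library. Its fold changes against that group, here and below, therefore rest on very few counts. With MDP in knockout cells 9 rose and 3 fell of 15, where 20.9% of all genes were called. They were led by Arg1 (log2 3.50, adjusted p = 0.014), Ccl22 (1.89, adjusted p = 0.00049) and Il4i1 (1.24, adjusted p = 0.0077). With GM, edgeR called 0 of 15 in wild-type cells (Ccl22 had log2 2.00, adjusted p = 0.052), while in knockout cells 2 rose and 5 fell, led by Ccl17 (-0.59, adjusted p = 2.3e-06); 0.65% and 8.61% of all genes were called. In the fit of all 18 libraries GM raised 2 in wild-type cells (Ccl22 and Il4i1) and changed 0 in knockout cells, with 4.72% and 0.0194% of all genes called. That fit gave 2 higher and 2 lower for MDP in knockout cells, with 2.76% called. In knockout against wild-type cells Arg1 was higher with water (4.09, adjusted p = 0.024; 6.42 without wild-type replicate 3), GM (2.15, adjusted p = 0.011) and MDP (3.94, adjusted p = 0.0039). Mgl2, the lectin closest to Clec10a, was lower with water, GM and MDP (-3.04, -2.51 and -2.18, adjusted p = 0.012, 0.012 and 1.7e-14), and -3.43 with water without wild-type replicate 3. Counts were 1 higher and 5 lower of 15 with water, 1 and 11 of 15 with GM, and 6 and 8 of 16 with MDP, where 15.8%, 32.4% and 46.9% of all genes were called. Without wild-type water replicate 3, 1 was higher and 13 were lower with water, where 49.3% of all genes were called.

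Of 10 partners and targets of PPARG, 0 rose and 5 fell of 9 tested with MDP in knockout cells, led by Lpl, lipoprotein lipase (log2 -1.19, adjusted p = 9.2e-21), Fabp4 (-0.58, adjusted p = 3.6e-10) and Plin2 (-0.43, adjusted p = 2.4e-09), where 10.5% of all genes were lower. The fit of all 18 libraries called 2 of them lower there, Lpl and Fabp4, with 2.76% of all genes called. With MDP in wild-type cells 1 of 10 passed (lower), and 4 rose and 5 fell without water replicate 3, where 9.14% and 37.6% of all genes were called. In knockout against wild-type cells with MDP, 0 were higher and 7 lower of 9, led by the fatty acid carrier gene Cd36 (-2.31, adjusted p = 1.2e-19), where 23.3% of all genes were lower. For that comparison the fit of all 18 libraries called 5 lower, with 26% of all genes called. Of 18 genes of FOLR2+ resident macrophages, 13 were tested in that comparison and 2 were higher and 9 lower, led by the complement genes C1qa (-3.54, adjusted p = 3.3e-06), C1qc (-3.04, adjusted p = 2.1e-07) and C1qb (-2.90, adjusted p = 3.9e-08). In that comparison 46.9% of all genes were called, 23.3% of them all being lower. The fit of all 18 libraries called 0 higher and 8 lower there, with 26% of all genes called. Knockout against wild type gave 1 higher and 2 lower of 13 in this list with water, and 1 and 4 of 13 with GM. The PPARG list gave 0 and 3 of 10 with water and 2 and 5 of 10 with GM. There 15.8% and 32.4% of all genes were called. Without wild-type water replicate 3, each list gave 2 higher and 8 lower with water, where 49.3% of all genes were called.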

How the data were processed

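Gene expression was measured by RNA sequencing of 18 libraries in 6 groups of 3, and groups were taken from the labels. Per the labels' protocols, poly(A)-enriched directional libraries were made. Per the submitters' processing notes, the authors used HISAT2 2.0.5, featureCounts 1.5.0-p3 and build GRCm39; counting settings and annotation release are not given in the sources used here. The deposited counts are whole reads per gene and were used for the tests. The deposited FPKM values were scaled to gene length and library size by the authors and were used to compare levels between genes. Counts were filtered (filterByExpr, minimum count 10), scaled with TMM and tested with edgeR 4.0.16 (quasi-likelihood, 2-sided) in R 4.3.3, on the 6 libraries compared, or 12 for differences between genotypes. The p-values were adjusted over all genes tested (Benjamini-Hochberg) and calls made below 0.05. CPM are on the TMM scale. The steps were tested on simulated data. Alternatives were a fit of all 18 libraries, median-ratio size factors, no low-count filter, DESeq2 1.42.0, the replicate number as a block, leaving out each library, and limma-voom (limma 3.58.1) with a spread per group, added after seeing the data. Promoter sequences came from RefSeq (GRCm38.p6). The members and all gene lists were chosen with earlier results of these data known. All members are named, and up to 3 called genes per other list and comparison, those with the largest fold change, plus for each member the 2 genes with the most similar pattern among those of at least 5 CPM; Il4, Il13, Chil4 and markers at 0 are named in addition. A gene of the monocyte list is not reported here and was left out of its sum.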

Additional observations from a re-analysis of the deposited data

Results flagged for a closer look

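The MDP response of Pparg differed between genotypes. MDP over water was log2 -0.79 in knockout cells and -0.10 in wild-type cells, a difference of -0.69 (SE 0.18, adjusted p = 0.038, edgeR). The 3 knockout MDP libraries lay below the 3 knockout water libraries, as did those of 17.3% of 15450 genes, while the wild-type groups overlapped. The call was lost without the low-count filter (adjusted p = 0.062), with the replicate block (0.066) and in limma-voom (0.069).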

How the results depend on the processing

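Of 1092 member values under an alternative, 1001 kept their call, 44 lost it, 46 gained it, and 1 changed sign with a call: Tgm2 in knockout against wild type with water, -0.29 to 0.49 over fits that left out 1 library, the upper end without wild-type water replicate 3. In a fit of all 18 libraries the members called numbered 2 for GM and 4 for MDP against water in wild-type cells and 2 for GM against MDP, where 4.72%, 24.7% and 19.4% of all genes were called. In knockout cells that fit called 0 for GM and 3 for MDP against water and 2 for GM against MDP, and for knockout against wild type it called 5 with water and 5 with GM (33.1% and 37.4% of all genes). DESeq2 called 4 for MDP against water and 2 for GM against MDP in wild-type cells, 4 for knockout against wild type with water and 2 for the genotype difference in MDP response (17.1%, 18.6%, 24.7% and 13.2% of all genes). Without the low-count filter, knockout against wild type with water had 2 and the MDP difference 0 (7.87% and 3.58%). In limma-voom, GM against MDP in wild-type cells had 0, knockout against wild type with water 3 and the MDP difference 0 (13.7%, 14.6% and 8.03%). Leaving out 1 library gave 1 to 6 members for MDP against water and 1 to 4 for GM against MDP in wild-type cells, 1 to 7 for knockout against wild type with water and 0 to 6 for the MDP difference; the upper ends are without wild-type water replicate 3, or for GM against MDP without wild-type GM replicate 3, where 37.6%, 15.2%, 49.3% and 26.3% of all genes were called. With the replicate number as a block, MDP against water in wild-type cells had 1 member (Mrc1 lost, adjusted p = 0.065) and the MDP difference 0 (2.52% and 6.51% of all genes). The numbers did not pair the samples throughout. Across genes, same-numbered wild-type GM and water libraries deviated with r = -0.217 for replicate 1, and together with 0.542 and 0.514 for replicates 2 and 3. Same-numbered knockout MDP and water libraries had 0.0572, -0.0191 and 0.00648. Depth limits Cd163, Folr2 and, outside wild-type MDP, Retnla. GM against water in wild-type cells called 0 members; at an unadjusted p below 0.05, Mrc1 (0.036) and Pparg (0.014) passed.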

Other observations

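Patterns across the 18 libraries, centred on their mean, were compared by the root mean square difference of log2 CPM, as a description over libraries that share genotype and treatment. Closest to Mrc1 were Rps6ka2 (0.171) and Dhrs9 (0.209). Closest to Chil3 were Sgms2 (0.333) and Tmem40 (0.378), to Il4ra Slc25a22 (0.122) and Fmnl2 (0.127), and to Tgm2 Bcl3 (0.195) and Grina (0.209). For Pparg they were Steap3 (0.159) and Lat2 (0.198), for Klf4 S100a6 (0.206) and 2410002F23Rik (0.213), and for Clec10a Trerf1 (0.504) and Pros1 (0.525). Nearest to Retnla were Wnt11 at 0.938 and Oprd1 at 1.04. Retnla itself varied most of the members compared (SD of log2 CPM 2.28), and this difference grows with a gene's own spread. Folr2, near the limit of detection, was nearest to Flrt2 (0.448) and Pmaip1 (0.459).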
